A study of Rattus norvegicus with 9 samples.

Results

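Regions of open chromatin that overlapped no called H3K4me1 region were taken from the accessible regions of the rat dorsal root ganglion (DRG). Of 186719 regions, 2776 were selected on position and on accessibility in naive rats. A selected region was shorter than 1500 bp, did not overlap any H3K4me1 region, had its nearest H3K4me1 edge at most 20000 bp away, was not bordered by H3K4me1 within 1000 bp on both sides, and had a mean of at least 40 normalized reads over the 3 naive rats. Another 106418 regions with the same position relative to H3K4me1 had a lower naive mean. The DRG holds the cell bodies of primary sensory neurons together with satellite glia, Schwann cells, vascular cells and immune cells. H3K4me1, the monomethylation of lysine on the tail of histone H3, is deposited by the methyltransferases KMT2C and KMT2D, and it marks enhancers whether active or primed. It is also found beside active promoters, whose centres carry trimethylation in its place, and insulators are another class of open chromatin that can lack it. The selected regions were therefore defined by the lack of a call of this mark, which does not show that the mark was absent. The measurements do not assign them to any of these classes.

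The study asked which regulatory regions change in the DRG in a model of neuropathic pain. ATAC-seq, in which the Tn5 transposase cuts open chromatin, was performed on ipsilateral L4-L6 DRGs of 2 female Sprague-Dawley rats 14 days after chronic constriction injury (CCI), a loose ligation of the sciatic nerve, and of 3 female Sprague-Dawley rats that had no procedure, with 1 rat per library. These groups follow the labels of the samples. The published text disagrees with itself on the group sizes, which it gives in its results with the groups exchanged and in its methods also as equal. The naive rats had no sham surgery, so the effects of ligation and of the operation cannot be told apart. The age of the rats is given both as 8 to 10 weeks and as 12 to 16 weeks. H3K4me1 was mapped by ChIP-seq in 2 samples per group, each pooled from 3 rats. The calls of CCI and naive samples form a joint set of 211440 regions without values per sample, so a region without H3K4me1 had no call in either group. Normalized reads are the reads over a region divided by the library's size factor. The reads recovered over all accessible regions numbered 7692994 in CCI rat 1 and 9304710 in CCI rat 2, and in naive rats 1, 2 and 3 they numbered 13248437, 4633807 and 6382154. Per selected region the median was 80 and 107 reads in the CCI libraries and 175, 60 and 80 in the naive ones. The tissue was bulk, so fewer cells of a type and less accessibility per cell cannot be told apart. Of 34 marker genes of DRG cell types, 8 had a region in the lists of the study. The region listed for *Prph*, which encodes the neuronal intermediate filament peripherin, had 66.8 and 58.1 normalized reads in the CCI rats and 22.5, 35 and 21.7 in the naive rats. The other neuronal genes were also higher in both CCI rats than in all naive rats, with 64.1 and 39.8 against 21.2, 25 and 23 for *Nefh* and log2 fold changes of 0.65 and 0.97 in the regions of *Tubb3*. So were both regions of the fibroblast gene *Col1a1*, with 117 and 84.7 against 54.6, 63 and 60.46 and with 91.5 and 80.1 against 48.0, 40 and 44.0. The endothelial genes differed in direction, with 292 and 182 against 144, 158 and 155 for *Pecam1* and 42.1 and 36.2 against 63.7, 67 and 86.7 for *Cdh5*, and so did the glial genes, with 56.7 and 44.4 against 87.9, 90 and 80.2 for *Mbp* and 58.7 and 44.0 against 21.9, 37 and 15.1 for *Sox10*. Chromatin at genes of neurons, glia, fibroblasts and vascular cells was accessible in all 5 rats, and since those lists hold regions that the study picked for a difference between these libraries, their direction is not independent evidence.

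The selected regions were narrower and weaker than strong regions that carry the mark. Their median length was 709 bp and their median naive mean 55.7 normalized reads, against 884 bp and 90.7 in the 16716 regions under 1500 bp that overlapped H3K4me1 and had the same minimum naive mean of 40. Strong regions over 20000 bp from H3K4me1 numbered 402 and had a median length of 797 bp and a median naive mean of 58.0. Per kb of length, the median level was 86.9 normalized reads in the selected regions, 114 in the overlapping regions and 79.3 in the distant ones. The lower signal of the selected regions was thus present per base as well as per region. The nearest H3K4me1 edge lay 4 to 19992 bp away, with a median of 3516 bp, and 527 regions (19.0%) had H3K4me1 within 1000 bp on one side. The nearest other accessible region lay at a median of 2587 bp, compared with 4428 bp for overlapping regions and 1350 bp for distant ones. The 3 naive rats differed by a median of 1.40-fold between the highest and the lowest rat in the selected regions and by 1.32-fold in the overlapping regions, and the difference exceeded 3-fold in 13 selected regions.

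Many selected regions lay close together. With neighbours at most 50 kb apart, 1174 of the 2776 regions (42.3%) had another selected region nearby, and 347 (12.5%) fell into 47 clusters of at least 5. The cluster with the most regions held 22 on chr1:180702165-181015231, followed by 21 on chr16:21721789-21842698, 16 on chr16:21951442-22140299 and 14 on chr7:22327153-22445346. Within the chromosome 1 cluster, the normalized reads summed over the 22 regions were 2752 and 3002 in the CCI rats and 3408, 3159 and 3205 in the naive rats. In the cluster of 21 regions on chromosome 16 the sums were 1289 and 1606 after CCI and 2096, 1881 and 2075 in naive rats. Both clusters had lower sums in both CCI rats than in all naive rats, which the choice of regions on naive values favours. In 3 of the 47 clusters the sums of the naive rats were over 1.5-fold apart. The 8 regions on chr17:89392939-89468789 summed to 3122 in naive rat 1, 1289 in rat 2 and 2010 in rat 3, and to 2333 and 2692 in the CCI rats, and naive rat 2 was the lowest naive rat in 8 of 8 regions. The 7 regions on chr14:46580047-46657407 summed to 315, 833 and 516 in the naive rats and to 541 and 529 in the CCI rats, and naive rat 1 was the lowest in 7 of 7. The 5 regions on chr2:160869001-160934213 summed to 922, 505 and 952 in the naive rats, with naive rat 2 lowest in 5 of 5, and to 678 and 794 in the CCI rats. In each of these clusters the CCI rats lay inside the range of the naive rats. Regions of a cluster are not independent of each other.

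The strongest selected region, on chr2:198589605-198590463, stood far above the others. It had 1912, 2665 and 1705 normalized reads in the naive rats and 872 and 1912 in the CCI rats. CCI rat 1 was the lowest of the 5 rats, and CCI rat 2 lay within the naive range, so the groups overlapped. The log2 fold change was -0.67 ± 0.40 (SE, limma, adjusted p = 0.521 over all regions), -0.10 without CCI rat 1, and -1.24 without CCI rat 2 (adjusted p = 0.0189). Centring on 1 Mb windows gave -0.95 with an adjusted p of 0.000987 by limma. The next strongest region, chr17:89441107-89442298 in the cluster described above, had 915, 374 and 582 normalized reads in the naive rats and 617 and 723 in the CCI rats. Its neighbour chr17:89439817-89440428 had 507, 232 and 336 in the naive rats and 286 and 440 in the CCI rats. In this pair too, naive rat 2 was below both other naive rats and the groups overlapped.

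Among the other strong regions, chr1:55684204-55685668 had 476, 478 and 464 normalized reads in the naive rats and 351 and 423 in the CCI rats. On chr10:75365072-75365522, 188 bp from H3K4me1, naive rats had 356, 611 and 448, compared with 409 and 359 after CCI. On chr13:33570212-33571436 naive rats had 480, 394 and 453, compared with 337 and 374 after CCI. Both CCI values were the lowest in the first and the last of these and overlapped them in the other. The chromosome 1 cluster contributed chr1:181013964-181015231, with 477, 409 and 454 against 383 and 408, and chr1:180755699-180756893, with 415, 383 and 391 against 293 and 339. On chr14:46525456-46526830 the naive rats had 224, 550 and 289 and the CCI rats 511 and 408, and on chr17:75980013-75981390 they had 350, 430 and 262 and the CCI rats 310 and 315. None of these 10 strongest regions was called at an adjusted p below 0.05 by limma on the deposited normalization, whereas window centring called the region on chromosome 2 and chr10:75365072-75365522 (log2 fold change -0.77, adjusted p = 0.0126) and quantile normalization the region on chromosome 2, chr1:55684204-55685668, chr13:33570212-33571436 and chr1:180755699-180756893 (adjusted p of 1.63e-12 to 0.0320), all as lower after CCI.

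At the minimum naive mean, the 3 regions just inside had means of 40.0067 to 40.0100 normalized reads and the 3 just outside 39.9833 to 39.9967. The region chr14:72515754-72516274, just inside, had 40.5, 46 and 33.5 in the naive rats and 35.4 and 19.2 in the CCI rats, chr3:9613339-9613983 had 33.6, 43 and 43.4 against 56.1 and 44.0, and chr7:36795781-36796419 had 42.2, 47 and 30.9 against 32.7 and 22.4. Just outside, chr15:5471053-5471425 had 36.6, 42 and 41.4 against 26.0 and 41.7, chr1:180886072-180886346 had 41.5, 41 and 37.5 against 38.0 and 34.8, and chr6:107511374-107512188 had 31.7, 37 and 51.3 against 50.1 and 36.2. Regions on both sides of this limit had alike levels. At the limit of distance, chr18:48094357-48095020 lay 19992 bp from H3K4me1 with 39.9, 52 and 38.1 in naive and 30.7 and 29.8 in CCI rats, chr2:241308856-241309526 lay 19977 bp away with 76.1, 74 and 61.8 against 61.4 and 38.9, and chr1:240399597-240399971 lay 19936 bp away with 42.2, 45 and 33.5 against 27.4 and 33.0. Just beyond it, chr9:56501537-56502287 lay 20070 bp away with 99.98, 97 and 96.6 in naive and 54.1 and 35.3 in CCI rats, chr9:31748667-31749619 lay 20088 bp away with 84.6, 87 and 44.0 against 32.0 and 47.6, and chr1:180925634-180926660 lay 20182 bp away with 159, 160 and 131 against 102 and 134.

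CCI was then compared with naive rats over all 186719 regions with limma on log2(normalized reads + 1), two-sided, with Benjamini-Hochberg adjustment over all of them, and a region was called at an adjusted p below 0.05. Of the 2776 selected regions, 95 (3.42%) were called less accessible after CCI, where 0.237% of all regions were, and 2 (0.0720%) more accessible, where 0.107% of all regions were. The median log2 fold change was -0.19 in the selected regions and 0.13 over all regions. The 2 CCI values were both lower than the 3 naive values in 875 selected regions (11% of all regions did) and both higher in 204 (18.2% of all regions did). Since the same naive values chose the regions, these counts and the p-values of single selected regions are descriptions and nothing is read from them. Cut at the same naive mean, the regions overlapping H3K4me1 had a median of 0.05, with 132 of 16716 called less and 30 more accessible. This group turned with the CCI rat left out, to a median of -0.13 with 127 called less and 1 more accessible without CCI rat 1, and to 0.24 with 73 less and 241 more without CCI rat 2. At the same cut, the distant regions had a median of -0.32, with 28 of 402 called less accessible. The 53 strong regions bordered by H3K4me1 on both sides had a median of 0.01, with 0 calls. The per-rat medians of the selected regions were 53.4 and 49.0 normalized reads in the CCI rats and 57.2, 60 and 52.6 in the naive rats, so that CCI rat 1 lay within the naive range. Of all reads in accessible regions, 3.51% and 3.88% fell in the selected regions in the CCI rats and 4.62%, 4.44% and 4.23% in the naive rats. Both CCI rats had at least 40 normalized reads in 1673 selected regions (60.3%), and neither did in 550. All 3 naive rats, whose mean chose the regions, reached 40 in 1895 (68.3%). Both CCI rats reached it in 87.7% of the overlapping strong regions and in 53.2% of the distant ones.

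The number of calls depended on which rats were included and on the model of the spread. There were 13 calls of lower accessibility without naive rat 1 (0.0187% of all regions were called), 44 without CCI rat 1 (0.131% of all regions) and 55 without naive rat 3 (0.108% of all regions). Of the 95 calls, 82 were lost without naive rat 1, 60 without CCI rat 1, 44 without naive rat 3, 37 without naive rat 2 and 34 without CCI rat 2, and 4 held without each rat in turn. A lost call did not always mean a smaller change. Without naive rat 1, the log2 fold change was -1.66 on chr4:32612598-32613161, against -1.67 with all rats. On chr2:180575178-180575960 it was -1.29 against -1.52. Without CCI rat 1 it was -0.58 on chr16:21899084-21900198, against -3.05. How many lost calls kept their fold change was not counted. DESeq2 on the recovered reads called 25 of the 95, where 0.0525% of all regions were called. limma without a mean-variance trend made 0 calls. At an unadjusted p below 0.05 it had 149 selected regions lower (5.37%), where 3.40% of all regions were, and 3 higher (0.108%), where 6.39% of all regions were. The trend sets a region's spread from its level alone, so that a region with 1 deviating rat can pass. Over all regions the split between calls of higher and lower accessibility, 200 and 443, was 48 and 593 with 1 Mb window centring, 151 and 1063 with median-of-ratios rescaling and 213 and 857 in edgeR with TMM factors. The median of all regions was 0.02, 0.03 and 0.01 in these settings. It was 0.13 in the main comparison and 0.11 in edgeR without TMM factors. Other settings moved the split the other way, to 312 and 387 in edgeR without TMM factors, 290 and 286 without naive rat 2 and 400 and 494 without CCI rat 2, whereas it was 2 and 244 without CCI rat 1. With quantile normalization the split was 1473 and 2596, and the median of all regions was 0.01. Higher calls were then 36.2% of all calls, against 31.1% in the main comparison. The median of the selected regions minus that of the overlapping strong regions was -0.24, and it was -0.10 with window centring, -0.12 without CCI rat 1 and -0.37 without CCI rat 2. With window centring the selected regions had a median of -0.25, the strong regions over 20000 bp from H3K4me1 -0.24, those bordered by H3K4me1 on both sides -0.24 and those overlapping it -0.15.

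Regions were also chosen by a value of at least 40 in 1 naive rat, and CCI was compared with the other 2 naive rats. The rat that chose the regions was thus left out of the comparison. A region still entered through a naive rat, and 1 that was high only after CCI could not enter. Lower CCI values therefore stayed favoured, and the values below are descriptions. Chosen on naive rat 1, 2900 regions without H3K4me1 had medians of 51.4 and 46.7 normalized reads in the CCI rats and 57.5 and 49.9 in naive rats 2 and 3, with a median log2 fold change of -0.14. Chosen on naive rat 2, 3262 regions had 49.4 and 44.0 in the CCI rats and 51.6 and 46.7 in naive rats 1 and 3, with a median of -0.08. Chosen on naive rat 3, 2642 regions had 52.7 and 48.5 against 57.2 and 58 in naive rats 1 and 2, with a median of -0.20. The CCI rats thus overlapped the remaining naive rats under the first and the second choice and lay below both under the third. Over all regions the same comparisons had medians of 0.17, 0.11 and 0.11, and strong regions overlapping H3K4me1 had medians of 0.02, 0.14 and 0.02. The median of regions placed like the selected ones was below both under each choice. That of strong regions over 20000 bp from H3K4me1 was lower still, at -0.25 (455 regions), -0.29 (400) and -0.31 (395). Regions without H3K4me1 chosen by a mean of at least 40 over all 5 rats had a median of -0.10 in the full comparison. The selected regions had -0.19 there. No test was made of these medians.

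Under the choices on a single naive rat, limma called 8 of 2900, 52 of 3262 and 41 of 2642 regions without H3K4me1 less accessible. These were 0.276%, 1.59% and 1.55%, where 0.0187%, 0.153% and 0.108% of all regions were called. Calls of higher accessibility numbered 2, 8 and 1 (0.0690%, 0.245% and 0.0379%), where 0.00589%, 0.155% and 0.0514% of all regions were. For strong regions overlapping H3K4me1, calls of lower accessibility were 9 of 16284, 72 of 17914 and 49 of 16414 (0.0553%, 0.402% and 0.299%), and for those over 20000 bp away they were 2 of 455, 22 of 400 and 12 of 395 (0.440%, 5.5% and 3.04%), higher shares than in the regions placed like the selected ones. Calls of higher accessibility in the overlapping regions numbered 2, 77 and 7, more than the lower ones under the choice on naive rat 2, and the distant regions had 0 under each choice. The difference between the lists was not tested. In all, 68 regions without H3K4me1 were called less accessible under at least 1 of the 3 choices, and 67 of them were among the 2776 selected regions. Another 10 were called more accessible under at least 1 choice, and 3 of these were selected regions. The shares of all regions under each choice are those given above. Under all 3 choices, 6 regions were called less accessible, all of them selected regions. Such a region has at least 40 normalized reads in each naive rat, so all 3 naive values chose it, and its p-values are descriptions.

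Of these 6, which were picked out after their values were seen, chr1:150410140-150410636 had the most even values in the CCI rats. It had 10.01 and 11.5 normalized reads after CCI and 57.2, 45 and 53.9 in the naive rats, where the CCI rats were alike and the groups did not overlap. The log2 fold change was -2.17 ± 0.32 (SE, limma, adjusted p = 4.39e-07). On chr15:95311872-95312754 the CCI rats had 18.7 and 28.8 and the naive rats 77.8, 69 and 68.3 (log2 fold change -1.58 ± 0.28, adjusted p = 0.000134 by limma). On chr13:8459670-8460608 they had 18.0 and 23.4 against 54.2, 60 and 70.3 (-1.53 ± 0.29, adjusted p = 0.000592 by limma), and on chr15:104927904-104928373 19.4 and 28.4 against 62.7, 78 and 63.1 (-1.49 ± 0.28, adjusted p = 0.000618 by limma). In these 4 regions the CCI rats were less than 2-fold apart. The last of them was not called without CCI rat 1, where its log2 fold change was -1.22. The other 3 were called without any 1 of the 5 rats, as was chr3:128660774-128661592, with 16.02 and 17.9 after CCI and 39.9, 57 and 54.5 in naive rats (-1.51 ± 0.30, adjusted p = 0.00201 by limma). These 4 regions were also called by edgeR and DESeq2 and with window centring. On chr5:28482332-28482610 the CCI rats had 5.34 and 16.5 and the naive rats 42.2, 40 and 42.7. Its log2 fold change was -2.02 ± 0.34 (adjusted p = 2.78e-05 by limma), and without CCI rat 1 it was -1.29 and the call was lost (adjusted p = 0.130).

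The numerically largest decrease rested on a single rat. On chr16:21899084-21900198, the last of the 6 regions and situated between 2 of the clusters on that chromosome, CCI rat 1 had 1.34 normalized reads, or 2 reads, and CCI rat 2 had 71.0, against 94.8, 98 and 130 in the naive rats. The log2 fold change was -3.05 ± 0.28 (adjusted p = 2.21e-22 by limma), and without CCI rat 1 it was -0.58 (adjusted p = 0.774). DESeq2 and limma with robust estimation did not call it (adjusted p = 0.676 and 0.628), while edgeR did (adjusted p = 0.00103). Likewise, chr14:46605364-46605754 had 3.34 and 30.2 after CCI and 32.4, 62 and 67.0 in naive rats, with a log2 fold change of -2.17 ± 0.32 (adjusted p = 4.39e-07 by limma) and of -0.74 without CCI rat 1 (adjusted p = 0.711). This region is part of the chromosome 14 cluster in which naive rat 1 was lowest. On chr3:90547979-90548907 the values were 4.67 and 18.3 against 33, 45 and 45.3, with a log2 fold change of -1.99 ± 0.34 (adjusted p = 4.75e-05 by limma) and of -1.11 without CCI rat 1 (adjusted p = 0.300). DESeq2 did not call either of them (adjusted p = 0.480 and 0.0714), whereas edgeR (0.00385 and 0.00316) and robust limma (2.36e-05 and 9.86e-05) did. In these 3 regions CCI rat 1 lay more than 3-fold below CCI rat 2. The CCI rats were over 3-fold apart in 5 of the 95 regions called less accessible, and CCI rat 1 was the lower of the CCI rats in 56 of the 95.

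The 95 regions lay on 20 of the 21 chromosomes, and their log2 fold changes ran from -3.05 to -0.98, with a median of -1.20. Their median normalized reads were 23.4 and 27.0 in the CCI rats and 59.8, 61 and 58.5 in the naive rats. Both CCI rats were below 40 normalized reads in 68 of them and at or above 40 in 11. With 1 Mb window centring, 68 of the 95 were still called, with DESeq2 25 and with edgeR 73. Of the 95, 20 had another selected region within 50 kb, compared with 1174 of all 2776.

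The 2 regions called more accessible were chr1:11966550-11967177 and chr9:100165611-100166688. The first had 155 and 91.1 normalized reads after CCI and 83.0, 42 and 46.7 in naive rats, with a log2 fold change of 1.11 ± 0.26 (adjusted p = 0.0154 by limma). It lay 1817 bp from a region that the study lists for *Rn5-8s*, a ribosomal RNA gene. The second had 92.8 and 77.8 after CCI and 30.7, 51 and 42.1 in naive rats, with a log2 fold change of 1.05 ± 0.27 (adjusted p = 0.0368 by limma). It lay 996 bp from a region listed for *Aqp12a*, an aquaporin gene. Both CCI rats were above all naive rats in both regions. The call of the first was lost in DESeq2, without CCI rat 1, and without naive rat 2 or 3 (adjusted p = 0.105 and 0.132 by limma). Its log2 fold change was then 1.09 in DESeq2, 0.73 without CCI rat 1, and 0.92 and 0.995 without naive rats 2 and 3. That of the second was lost in DESeq2, with robust estimation, with window centring and without either CCI rat. It was also lost without naive rat 1 or 3 (adjusted p = 0.455 and 0.0833 by limma). The log2 fold change of this region was 1.07 in DESeq2, 1.05 with robust estimation and 0.71 with window centring. It was 0.93 and 1.18 without CCI rats 1 and 2, and 0.86 and 1.08 without naive rats 1 and 3.

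Among the selected regions, the difference between the groups varied with the distance from H3K4me1. The median log2 fold change was -0.14 in the 527 regions with an edge within 1000 bp, -0.11 at 1000 to 2000 bp (424 regions), -0.16 at 2000 to 5000 bp (786), -0.23 at 5000 to 10000 bp (620) and -0.34 at 10000 to 20000 bp (419). The medians of the farthest regions were 49.4 and 44.9 normalized reads in the CCI rats and 59.8, 60 and 54.5 in the naive rats, and the groups did not overlap. In the regions within 1000 bp they were 56.1 and 51.3 against 56.5, 61 and 51.9, and the groups overlapped. The difference between the nearest and the farthest regions was seen with either CCI rat alone, at -0.20 and -0.36 without CCI rat 1 and at -0.04 and -0.27 without CCI rat 2. In the regions chosen on a single naive rat, the medians were -0.10 and -0.27, 0.00 and -0.26, and -0.13 and -0.31 for choices on rats 1, 2 and 3. Those regions also entered through a naive rat, so these medians are not independent evidence. With 1 Mb window centring the difference between the nearest and the farthest selected regions was smaller, at -0.23 and -0.30. The length of the farthest regions was greater (median 809 bp) than that of the nearest (669 bp), and longer regions had log2 fold changes closer to 0, from -0.28 at up to 400 bp to -0.13 at 1000 to 1500 bp. Bins of the naive mean between 40 and 150 normalized reads had medians of -0.18 to -0.21, and the 113 regions above 150 had -0.15. These medians are descriptions, and no test was made of the trend.

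The level also varied between chromosomes, together with the other regions of the same chromosome. The selected regions had positive medians on chromosome 10 (0.23, 89 regions) and chromosome 12 (0.20, 49 regions), where all regions had medians of 0.49 and 0.49. The lowest medians were found on chromosome 16 (-0.32, 117 regions), chromosome 2 (-0.29, 323 regions) and chromosome 4 (-0.29, 149 regions), where all regions had medians of 0.08, -0.03 and 0.07. On each of the 21 chromosomes the median of the selected regions was below that of all regions and below that of the strong regions overlapping H3K4me1. Naive values chose the selected regions but not all regions, which favours a median below that of all regions on every chromosome. The overlapping strong regions were cut at the same naive mean of 40, so this reason does not cover them. The difference from them was not tested. Both tallies are descriptions, and nothing is read from them. After centring on 1 Mb windows, chromosome 10 had a median of -0.24 and chromosome 12 also -0.24, like the -0.25 of all selected regions. Differences between chromosomes remained, with -0.35 on chromosome 4, -0.32 on chromosome 16 and -0.14 on chromosome X.

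Gene names were taken from the regions that the study lists, as an annotation of the genome build was not used. Of the 476 listed promoter regions, 6 had no overlap with H3K4me1 and only 1 was among the selected regions, that of *Gfer* on chr10:14061201-14062225. *Gfer* encodes a sulfhydryl oxidase that works in protein import into mitochondria and is also known as augmenter of liver regeneration. The region lay 282 bp from H3K4me1 on one side. It had 269 and 225 normalized reads after CCI and 129, 196 and 156 in naive rats, with both CCI rats above all naive rats. The log2 fold change was 0.63 ± 0.26 (adjusted p = 0.303 by limma) and did not pass the threshold. It was 0.09 relative to the 1 Mb window around it, and 0.55 with quantile normalization, which called it. The study chose its list on these libraries.

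The promoter sequence of *Gfer* is shown because the promoter region listed for this gene is the only one among the selected regions. The RefSeq sequence covers the 250 bases before the gene start, chr10:14225380-14225629 on the minus strand of build GRCr8, a later build than rn6. It is printed in the direction of transcription, with a GC box match in capitals.
Gfer: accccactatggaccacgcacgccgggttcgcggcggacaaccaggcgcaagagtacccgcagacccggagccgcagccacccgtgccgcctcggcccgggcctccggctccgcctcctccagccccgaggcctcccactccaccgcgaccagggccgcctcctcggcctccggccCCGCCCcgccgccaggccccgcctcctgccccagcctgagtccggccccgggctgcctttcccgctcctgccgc
G and C made up 78.4% of these bases, compared with a median of 51.2% over 33469 rat promoters of the same length, and 30 CpG dinucleotides were present, compared with a median of 5 and more than in 94.7% of promoters. Of the motifs searched on both strands, the GC box (GGGCGG, reverse CCGCCC) was found 1 time, starting at base 177 from the 5′ end, and is present in 30.5% of promoters. The CCAAT box (CCAAT), the TATA box (TATAAA), the ETS site (CCGGAAGT), the NRF1 site (GCATGCGC), the YY1 site (AAGATGGC) and the CTCF core had no match, and are present in 34.0%, 12.9%, 3.10%, 2.20%, 1.63% and 0.412% of promoters. A CpG-rich promoter is a common form at genes used in many tissues. The matches describe letters in this window, which was not placed against the selected region on rn6. The bases of the selected regions themselves were not read, since a genome of build rn6 was not used here.

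Another 27 selected regions lay within 5 kb of a listed region, and the gene names listed for those regions were attached after the values were seen. Distances to the genes themselves were not measured. Of the regions called less accessible, chr1:138720830-138721175 lay 325 bp from a region listed for *Klhl25*, which encodes a substrate adaptor of a ubiquitin ligase. It had 10.01 and 14.2 normalized reads after CCI and 58.5, 51 and 27.6 in naive rats (log2 fold change -1.78 ± 0.32, adjusted p = 0.000255 by limma). Without naive rat 1 the log2 fold change was -1.58 and the call was lost (adjusted p = 0.137 by limma). Near a region listed for *Thsd7a*, a membrane protein with thrombospondin repeats, chr4:38701837-38702485 had 28.0 and 23.8 against 86.6, 70 and 58.5. Its log2 fold change was -1.42 ± 0.28 (adjusted p = 0.00123 by limma). Without naive rat 1 the log2 fold change was -1.28 and the call was lost (adjusted p = 0.154 by limma). In both regions no CCI value reached the lowest naive value. Near a region listed for *Tyrp1*, an enzyme of melanin synthesis, chr5:98003269-98003738 had 25.4 and 15.1 against 44.8, 45 and 44.7. Its log2 fold change was -1.15 ± 0.30 (adjusted p = 0.0457 by limma). The call was lost without each naive rat in turn (adjusted p of 0.0797 to 0.327 by limma), in edgeR and DESeq2 and with robust limma (adjusted p = 0.0693). The log2 fold change stayed at -1.15 without each naive rat and with robust limma, and was -1.17 in edgeR and DESeq2. It was smaller without CCI rat 2, at -0.80. With window centring it was -0.71 and the call was lost (adjusted p = 0.405 by limma). Near a region listed for *Hif3a*, a subunit of a hypoxia-inducible transcription factor, chr1:78999417-78999964 had 35.4 and 36.6 against 49.0, 71 and 139. Its log2 fold change was -1.10 ± 0.27 (adjusted p = 0.0234 by limma). Naive rat 3 lay well above the other naive rats. Without that rat the log2 fold change was -0.70 and the call was lost (adjusted p = 0.452 by limma). The call was also lost without CCI rat 1 and in DESeq2, where the log2 fold changes were -1.08 and -1.26. Near a region listed for *Ccl2*, a chemokine that attracts monocytes, chr10:69409512-69410142 had 64.1 and 47.6 against 40.8, 57 and 65.7. The groups overlapped there, and the log2 fold change was 0.05 ± 0.27 (adjusted p = 0.962 by limma).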

How the data were processed

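ATAC-seq libraries of 2 CCI and 3 naive rats and 1 list of H3K4me1 regions were used. The ATAC-seq reads were adaptor-trimmed by the authors, mapped to rn6 in Bowtie2, cleared of duplicates and poorly mapped reads and shifted for the Tn5 footprint, before region calling in MACS2 and counting in DiffBind. The deposited signal of a region is its read count over the size factor of the library. H3K4me1 regions were called by the authors in MACS2 as broad peaks, with input as control, and those of both groups were merged. The submitters' processing notes also name CASAVA 1.8.2 and limma.

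Regions overlapped H3K4me1 if they shared at least 1 bp. The members and lists were chosen with earlier results of these data known. CCI was compared with naive rats over all regions in R 4.3.3 with limma 3.58.1, which took log2(value + 1), a mean-variance trend and no covariates, and the test was tried on simulated data. Fold changes on this scale are too small where reads are few. The prior degrees of freedom of the trend were infinite, against 5.80 without a trend, so the spread of a region was taken from its level. Whole reads were recovered from the deposited signal with size factors of 1.50 and 2.18 for CCI and 3.06, 1 and 1.52 for naive rats (100% of values whole within the rounding of the deposit). On these, edgeR 4.0.16 (quasi-likelihood) called 312 regions higher and 387 lower, and DESeq2 1.42.0 called 18 and 98. Summaries used Python 3.11.15 with numpy 2.4.6, pandas 2.3.3 and scipy 1.17.1. The p-values and SE of limma with the trend rest on the spread fitted to the level over these rats. They do not measure how the rats differed in the region itself.

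Named were the 10 regions with the highest naive mean, up to 5 with the largest called change in each direction without overlap of the groups, 3 on each side of both limits, and regions at listed promoters. The text also names others, picked after their values were seen, among the regions called under all choices or without any 1 rat and those near listed regions. Naming by distance to a TSS, the marker check at TSSs and counts of motifs in regions need a genome and annotation of rn6 and were not made. The alternatives concerned pseudocounts, low regions, scaling, window centring, the model, a replicate block, each rat, the call rule and the limits of the selection. The fold changes and p-values in the lists of the study were not used, and 1 of these lists was read in part.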

Additional observations from a re-analysis of the deposited data

How the results depend on the processing

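The median log2 fold change of the selected regions was negative under every alternative run, from -0.31 in edgeR with TMM factors and -0.30 with median-of-ratios rescaling to -0.083 when regions were chosen on naive rat 2 alone, and from -0.25 to -0.12 when a rat was left out. Selected regions called less accessible numbered 95 (0.237% of all regions were called), and, with the share of all regions under the same setting, 321 with quantile normalization (1.39%), 187 with median-of-ratios rescaling (0.569%), 158 in edgeR with TMM factors (0.459%), 62 with robust limma (0.167%), 25 in DESeq2 (0.0525%), 0 in limma without a trend (0%), 311 at an unadjusted p below 0.01 (1.46%), 57 when chosen by a mean of all 5 rats, 50 at a naive mean of at least 60, and 13 to 87 when a rat was left out (0.0187% and 0.265% of all regions). Selected regions called more accessible numbered 2 (0.0720%, where 0.107% of all regions were called), and 36 with quantile normalization (1.30%, where 0.789% of all regions were, so above the share of all regions and not below it), 1 with robust limma (0.0552% of all regions), 0 in DESeq2 (0.00964%; 61 at an unadjusted p below 0.05, where 3.81% of all regions were), 0 in limma without a trend (3, where 6.39% of all regions were), 35 at an unadjusted p below 0.01 (2.13% of all regions), 6 by a mean of all 5 rats, 4 at a naive mean of at least 30, 0 at a naive mean of at least 60, and 0 to 4 when a rat was left out. Choosing by the mean of all 5 rats or by another naive mean changed only the list. The shares of all regions stayed at 0.107% more and 0.237% less accessible. Without naive rats 1, 2 and 3, the selected regions called more accessible numbered 1, 2 and 0, where 0.00589%, 0.155% and 0.0514% of all regions were. The share at 40 or more in both CCI rats was 60.3%, and 39.6% and 88.2% at naive means of at least 30 and 60. With the replicate block 10 were called less (0.0327% of all regions) and 0 more accessible (0.00857%; 19 at an unadjusted p below 0.05, where 4.76% of all regions were). Over all regions, the deviations of rats of the same number from their group mean had correlations of -0.0622 and -0.0564. With 2 CCI rats the deviations mirror each other, so these values cannot show whether the numbers pair the rats. Where a lone CCI rat was left, it was assumed to vary like the naive rats. The count without a rat depended on which rat it was, and the causes of the differences between settings were not tested. Robust limma, edgeR with TMM factors, leaving out regions within 50 kb of another (75 less and 2 more accessible) and the requirement of groups without overlap (95 and 2) were added after seeing the data. For 18 regions, namely the 10 strongest, the 7 with the largest called changes and that of *Gfer*, 262 of 306 values kept their sign and side of the threshold, 28 lost the call, 8 gained one and 8 uncalled values changed sign. Only the 7 called regions could lose a call, so all 28 losses fell on them, and limma without a trend called none of the 7. The shares of regions near a TSS or with a CTCF motif were not run. Depth limits single regions, with a median of 60 reads per selected region in the smallest library.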
